A study of Homo sapiens with 11 samples.

Results

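The HP1 and polycomb genes are 9 rows of the expression matrix, taken by name: the HP1 genes CBX1, CBX3 and CBX5, the polycomb repressive complex 2 (PRC2) genes EZH2, SUZ12 and EED, and the polycomb repressive complex 1 (PRC1) genes RING1, RNF2 and BMI1. All 9 were found among the 31325 genes of the matrix. The study put a mimic of the microRNA miR-365a-3p, or a control miRNA, into human cancer lines and read the mRNAs on 11 Illumina BeadChip arrays in 4 groups. MDA-MB-231 is a basal-like breast cancer line, and each of its groups had 3 arrays. SKOV3 is an ovarian cancer line, for which the study's text names the derivative SKOV3.ip1, and it had 3 miR-365a-3p arrays and 2 control arrays. The sample labels give 48 h, although the control label carries the number without a unit, and the description of the series says 24 h. No allele was changed in either line, and the model is a mimic added from outside, whose level in the cells these arrays do not give. The comparison asks how far mRNAs of the repressive chromatin machinery changed when miR-365a-3p was raised.

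HP1 proteins bind histone H3 that carries the methyl mark H3K9me3 and hold silent heterochromatin together, and CBX5, CBX1 and CBX3 encode HP1α, HP1β and HP1γ. PRC2 places the mark H3K27me3, with EZH2 as its enzyme and SUZ12 and EED as subunits without which the enzyme does not work, while PRC1 attaches ubiquitin to histone H2A through RING1 or RNF2, with BMI1 as a partner. Both polycomb complexes are known for keeping developmental genes such as the HOX genes silent.

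The transfected microRNA pairs with mRNAs mainly through its seed, bases 2 to 8 from its 5′ end, so the mature sequence is shown with the seed in capitals. It was read from RefSeq, where hsa-miR-365a-3p lies at chr16:14309340-14309361 on the plus strand of GRCh38.p14, and the copy hsa-miR-365b-3p at chr17:31575478-31575499 has the same 22 bases.
hsa-miR-365a-3p: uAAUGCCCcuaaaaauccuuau
Seed sites in the mRNAs of the 9 genes were not searched, since no transcript sequences were used here.

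The transformation behind the deposited values is not stated, and they are taken here as log2 values, so that fold changes and percentages of control hold only if the scale is log2. All values per gene were quantile normalized across the 11 arrays which gives each array the same distribution, in which the median gene lies at 7.38 and the 99th percentile at 12.4. A gene was called when its limma p, adjusted over the 31325 genes (Benjamini-Hochberg), was under 0.05, and "rose" and "fell" are used only of called genes. The deposited columns, although quantile normalized by the authors, did not share 1 distribution: their 75th percentiles were 7.56 to 7.80 on the miR-365a-3p arrays and 7.86 to 8.04 on the control arrays. For the 9 genes and the gene lists, results on the deposited scale are therefore given beside the others where a call or a direction changes. Nothing in the labels says that replicates came from separate cultures, so a p-value measures only the spread between these arrays, which may be technical.

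The markers of the lines were partly distinct. ERBB2 had a mean of 10.86 in SKOV3 controls and 7.61 in MDA-MB-231 controls (adjusted p = 0.000109 from limma) and PAX8 had 8.18 and 7.40 (adjusted p = 5.87e-07), whereas KRT7 (adjusted p = 0.245) and the MDA-MB-231 markers VIM, CD44 and CAV1, at 10.47 to 13.79 in both lines, did not separate them. PTPRC, PECAM1, CD3E and ALB, which mark leukocytes, endothelium, T cells and hepatocytes, lay between 7.28 and 7.39 in both controls, near the floor. A score was taken as the median of 248 genes of small proteins (ribosomal, respiratory chain, proteasome and similar) minus that of 20 genes of large proteins (myosins, laminins, collagens and similar). It was 2.82 to 3.42 on the miR-365a-3p arrays and 0.183 to 0.952 on the control arrays. The score was chosen with earlier results of these data known, so this separation is a description and no test. Among single genes, 23.6% had arrays that did not overlap, in the same direction in both lines. Replicate 1 of miR-365a-3p had the highest score in each line, 3.42 in both.

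Of the 9 genes, 2 were called in MDA-MB-231, where CBX3 rose and SUZ12 fell, against 26.1% of all genes (14.4% higher and 11.7% lower). In SKOV3 CBX3 was the single member called, against 14.4% of all genes (7.25% higher and 7.11% lower). CBX3 was thus the one member called in both lines with the same sign, as were 11.2% of all genes. Every member except RNF2 had group means above 8, so genes with signal are a closer yardstick. Among the 6853 genes with a mean above 8, 2673 rose and 1793 fell in MDA-MB-231. In SKOV3 1603 rose and 1047 fell, and 1442 rose and 915 fell in both lines. These shares are larger than those of the 9 members, a difference that was not tested. The deposited scale gave 3 called members in MDA-MB-231, with EZH2 added as a fall, and the same single call in SKOV3. There 25.2% of all genes were called in MDA-MB-231 (7.26% higher and 17.9% lower) and 17.9% in SKOV3 (3.83% higher and 14% lower), so the balance of higher against lower calls depends on the scale. None of the 9 changes differed between the lines by limma's test of the difference, in which 2.54% of all genes were called, although CBX1 and SUZ12 had unadjusted p-values of 0.04 and 0.0425 in that fit. In bulk samples, fewer cells with a transcript and less of it per cell cannot be told apart.

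**Figure D1:**
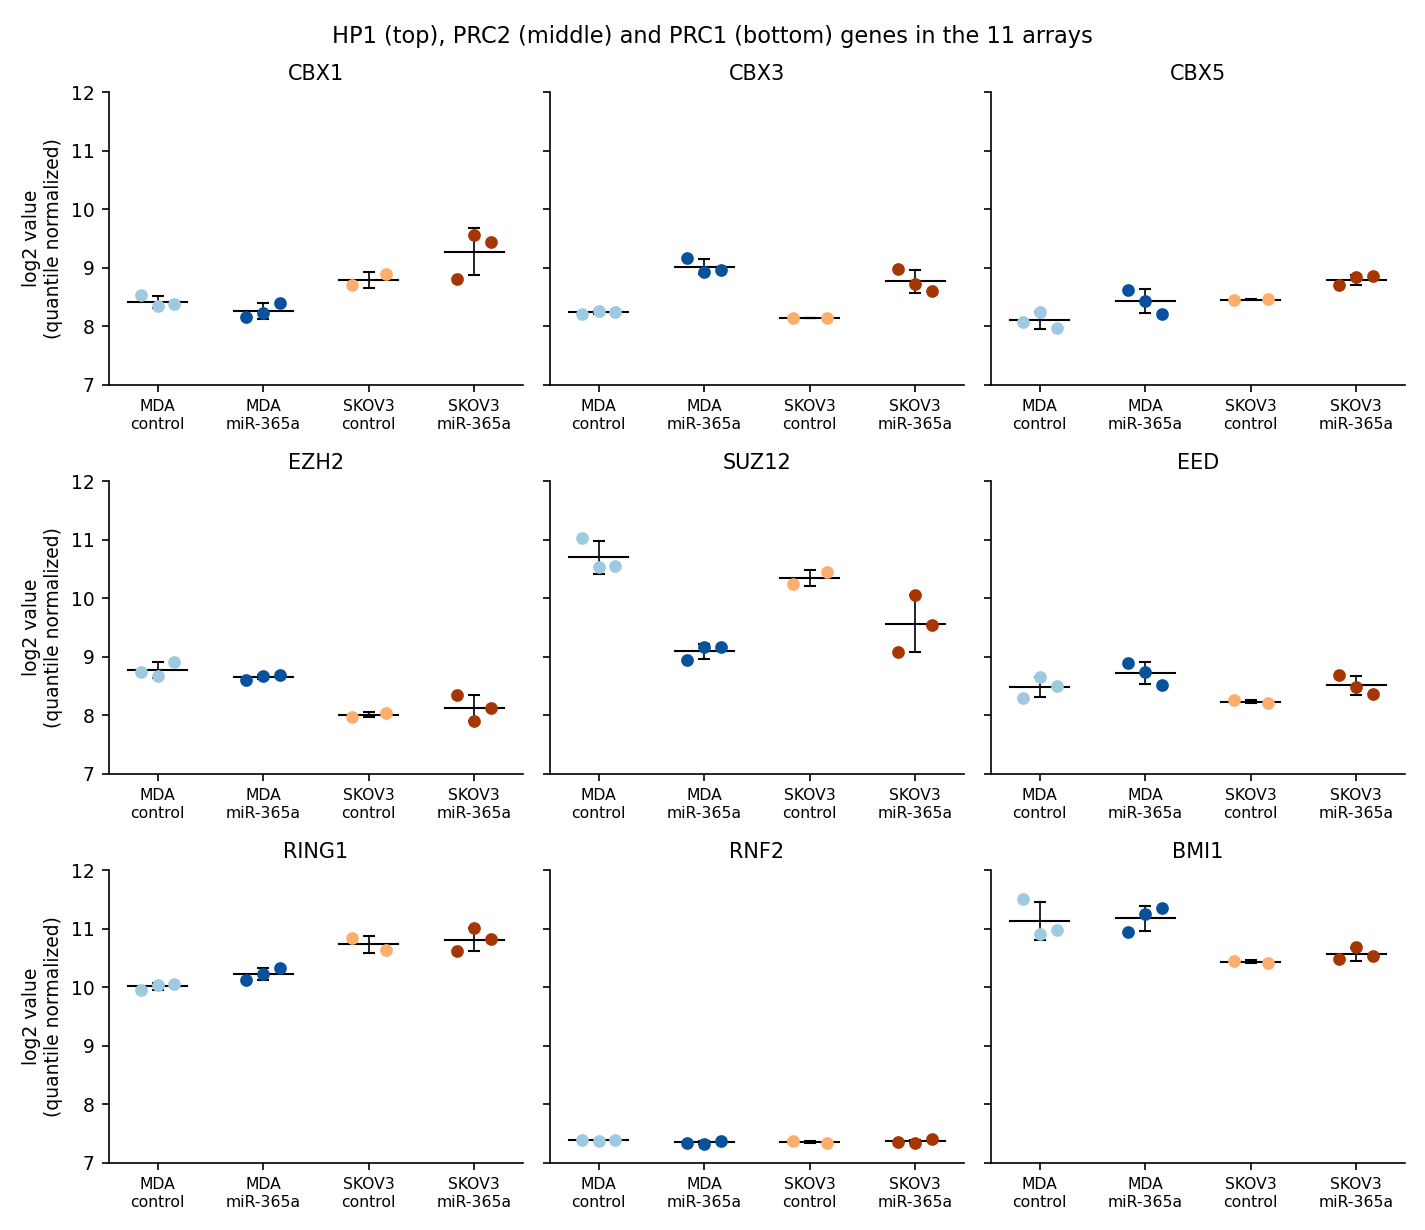
Each panel shows 1 gene, with the quantile-normalized log2 value on the y axis and the 4 groups on the x axis. Points are arrays, horizontal lines are group means and bars are SDs (n = 3, or 2 for SKOV3 controls). The miR-365a-3p arrays lie above the controls for CBX3 and below them for SUZ12 in both lines, and RNF2 lies between 7.33 and 7.40 on all 11 arrays.

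Among the HP1 genes, CBX3 showed the clearest separation. In MDA-MB-231 the control arrays read 8.21, 8.26 and 8.25 and the miR-365a-3p arrays 9.16, 8.92 and 8.96. In SKOV3 the controls read 8.13 and 8.14 and the miR-365a-3p arrays 8.98, 8.72 and 8.61. The groups did not overlap in either line, and the gap between them was wider than the range of either group. CBX3 mRNA rose 1.72-fold in MDA-MB-231 (log2 fold change 0.78, 95% interval 0.57 to 0.99) and 1.54-fold in SKOV3 (0.63, 0.39 to 0.86). An exact two-sided permutation of the treatment within the lines, run for each of the 9 genes, gave p = 0.005 for CBX3, the smallest that the 200 arrangements allow. The same permutation gave p = 0.01 for SUZ12 and CBX5, 0.03 for EED and 0.125 to 1 for the other genes, all unadjusted over the 9. These p-values are for quantile-normalized values, and the deposited values of single members were not permuted. Those of CBX5 and EED hold for that scale only, since their changes depended on the scaling. Arrays without overlap in the same direction in both lines, as for CBX3, SUZ12 and 23.6% of all genes, already place a gene at or near the smallest p. Replicate 1 of miR-365a-3p, which had the highest score, also had the highest CBX3 value in each line. The lowest CBX3 values of the miR-365a-3p arrays, in replicate 2 in MDA-MB-231 and replicate 3 in SKOV3, were not on the arrays with the lowest scores.

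The size of the CBX3 change depended on the scaling. From the deposited values the log2 fold change was 0.44 in MDA-MB-231 (adjusted p = 0.000996 from limma) and 0.37 in SKOV3 (adjusted p = 0.00621), called in both and in the same direction. The SKOV3 call was the narrower one, with adjusted p = 0.0499 when that line was fitted alone.

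CBX5, the gene of HP1α, had a change of 0.33 on the log2 scale in MDA-MB-231 (95% interval 0.085 to 0.57, adjusted p = 0.0521 from limma) and 0.34 in SKOV3 (0.072 to 0.61, adjusted p = 0.0992), and was called in neither. Its SKOV3 arrays did not overlap, with controls at 8.45 and 8.46 and miR-365a-3p arrays at 8.70, 8.83 and 8.86. Its MDA-MB-231 arrays did, with controls at 8.08, 8.25 and 7.97 against 8.62, 8.44 and 8.21. The outcome turned on single arrays: without replicate 3 of miR-365a-3p in MDA-MB-231, CBX5 was called in both lines (adjusted p = 0.011 and 0.0482), and without replicate 2 of the MDA-MB-231 control it was called in MDA-MB-231 (adjusted p = 0.0334). From the deposited values it had -0.049 in MDA-MB-231 (adjusted p = 0.83) and 0.076 in SKOV3 (adjusted p = 0.793), so no direction can be given for CBX5 in MDA-MB-231. As deposited its SKOV3 arrays overlapped, with controls at 8.73 and 8.66 and miR-365a-3p arrays at 8.58, 8.82 and 8.90. The separation in SKOV3 thus depends on the scaling.

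CBX1, the gene of HP1β, had MDA-MB-231 controls at 8.53, 8.34 and 8.39 and miR-365a-3p arrays at 8.15, 8.23 and 8.40. These overlapped, and the log2 fold change was -0.16 (95% interval -0.56 to 0.24, adjusted p = 0.639 from limma; deposited values -0.53, adjusted p = 0.102). In SKOV3 the controls read 8.70 and 8.88, and the miR-365a-3p arrays 8.81, 9.56 and 9.44. Replicate 1 lay between the controls and the other arrays lay above them. The SKOV3 log2 fold change was 0.48 (95% interval 0.031 to 0.92, adjusted p = 0.168; deposited values 0.24, adjusted p = 0.604). Without replicate 1 of miR-365a-3p in SKOV3 it was 0.71 and called (adjusted p = 0.00384), and the difference between the lines, 0.63 with all arrays (adjusted p = 0.35), was 0.86 and called (adjusted p = 0.0144).

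Of the PRC2 genes, SUZ12 showed the largest change of the 9 members in both lines. In MDA-MB-231 it read 11.02, 10.53 and 10.54 in controls and 8.94, 9.17 and 9.16 with miR-365a-3p. The groups were far apart there, and SUZ12 fell to 32.8% of the control level (log2 fold change -1.61, 95% interval -2.14 to -1.08, adjusted p = 0.00111 from limma). In SKOV3 the controls read 10.24 and 10.44, and the miR-365a-3p arrays 9.09, 10.06 and 9.53. All miR-365a-3p arrays lay below both controls, but they were widely spread, and the log2 fold change of -0.78 (95% interval -1.37 to -0.19), a level of 58.2% of control, was not called (adjusted p = 0.0863).

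Replicate 1 of miR-365a-3p, with the highest score, had the lowest SUZ12 value in each line, and in SKOV3 replicate 2, with the lowest score of the miR-365a-3p arrays, had the highest. Without that replicate 2, SUZ12 was called in SKOV3 (-1.03, adjusted p = 0.0127 from limma), and over all arrays left out in turn its SKOV3 change ran from -1.03 to -0.54. In MDA-MB-231 the miR-365a-3p array with the lowest score, replicate 3 (3.03), did not have the highest SUZ12 value. Of the MDA-MB-231 controls, replicate 1 had both the highest score (0.881) and the highest SUZ12 value. The deposited values gave -1.78 in MDA-MB-231 (adjusted p = 0.001) and -0.86 in SKOV3 (adjusted p = 0.0707). SUZ12P, a pseudogene copy of SUZ12 with a row of its own, lay near the floor, with control means of 7.43 ± 0.0045 (SD, n = 3) in MDA-MB-231 and 7.48 ± 0.0037 (SD, n = 2) in SKOV3, and 7.53 in both miR-365a-3p groups. Its rise of 0.09 in MDA-MB-231 (adjusted p = 0.0196 from limma) was not seen on the deposited scale (-0.02, adjusted p = 0.494). In SKOV3 its change was 0.05 (adjusted p = 0.328) after normalization and a called -0.07 (adjusted p = 0.0372) as deposited. Cross-hybridization between the copies was not tested.

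EZH2, the methyltransferase itself, was not called in either line after normalization. Its MDA-MB-231 arrays read 8.73, 8.67 and 8.92 in controls and 8.60, 8.67 and 8.68 with miR-365a-3p, and its SKOV3 arrays 7.98 and 8.04 against 8.35, 7.91 and 8.12. Both pairs of groups overlapped. The MDA-MB-231 log2 fold change was -0.12 (95% interval -0.36 to 0.12, adjusted p = 0.525 from limma), and that of SKOV3 was 0.12 (-0.14 to 0.38, adjusted p = 0.675). The deposited values, however, gave a fall of EZH2 in MDA-MB-231 (-0.47, adjusted p = 0.0129), with controls at 8.79, 8.82 and 9.04 and miR-365a-3p arrays at 8.23, 8.52 and 8.48. Whether EZH2 mRNA fell in MDA-MB-231 therefore depends on the scaling, and in SKOV3 the deposited value was -0.18 (adjusted p = 0.445).

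EED, the subunit that binds the methyl mark, had log2 fold changes of 0.24 in MDA-MB-231 (95% interval -0.037 to 0.51, adjusted p = 0.217 from limma) and 0.28 in SKOV3 (-0.028 to 0.59, adjusted p = 0.255). Its SKOV3 controls lay at 8.25 and 8.21 and all miR-365a-3p arrays above them, at 8.37 to 8.69, while the MDA-MB-231 groups overlapped. The deposited values gave -0.12 and -0.0045, so no direction is given for EED.

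**Figure D2:**
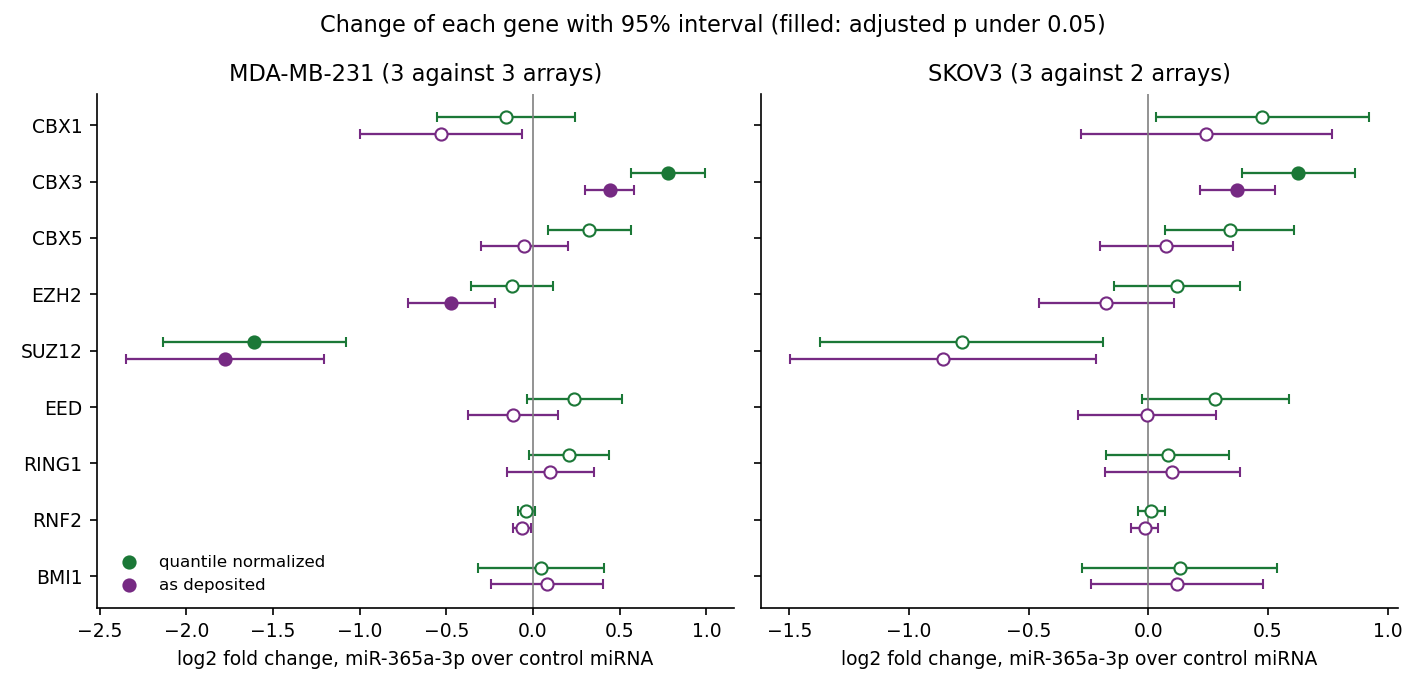
The x axis is the log2 fold change of miR-365a-3p over control miRNA, with 95% intervals from limma, for each gene in MDA-MB-231 (left) and SKOV3 (right). Green marks quantile-normalized and purple deposited values, and filled symbols have an adjusted p under 0.05: CBX3 is filled on both scales in both lines, SUZ12 in MDA-MB-231 on both scales, and EZH2 in MDA-MB-231 on the deposited scale.

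The PRC1 genes gave no call in either line on either scale. RING1, one of the alternative ubiquitin ligases, had log2 fold changes of 0.21 in MDA-MB-231 (95% interval -0.022 to 0.44, adjusted p = 0.195 from limma) and 0.08 in SKOV3 (-0.18 to 0.34, adjusted p = 0.805). Its MDA-MB-231 arrays lay at 9.95 to 10.06 in controls and at 10.12 to 10.32 with miR-365a-3p, without overlap. As deposited they overlapped, with controls at 9.92 to 10.11 and miR-365a-3p arrays at 9.99 to 10.22, and the change was 0.10 (adjusted p = 0.621 from limma). BMI1, the partner that stimulates the ligase, read 10.41 to 11.51 over all arrays and had 0.04 in MDA-MB-231 (-0.32 to 0.41, adjusted p = 0.906) and 0.13 in SKOV3 (-0.28 to 0.54, adjusted p = 0.796). RNF2, the other ligase, read 7.33 to 7.40 on all 11 arrays, between the percentiles 31.6 and 55.3 of an array, so it was at the floor and a change of its mRNA was not detectable.

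The control levels of 3 of the 9 genes differed between the lines, against 16.1% of all genes called in that comparison. EZH2 in SKOV3 controls was at 58.9% of its level in MDA-MB-231 controls (log2 difference -0.76, adjusted p = 0.00197 from limma). BMI1 was at 61.5% (-0.70, adjusted p = 0.0277), and RING1 was 1.65-fold higher (0.72, adjusted p = 0.00244). The BMI1 call was lost without replicate 1 (adjusted p = 0.132) or replicate 2 (adjusted p = 0.154) of the SKOV3 control. From the deposited values the same 3 genes were called, and CBX5 too, higher in SKOV3 (0.46, adjusted p = 0.0296), against 0.36 after normalization (adjusted p = 0.0823). The values of EZH2 and RING1 over the 11 arrays had r = -0.938, a description that mainly carries the difference between the lines.

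Counted by arrays that do not overlap, CBX3, SUZ12, RING1 and RNF2 separated in MDA-MB-231, 4 of 9 genes against 38% of all genes. CBX3, CBX5, SUZ12, EED and BMI1 did so in SKOV3, 5 of 9 against 41.8%. CBX3 and SUZ12 separated in the same direction in both lines, 2 of 9 against 23.6%. As deposited, CBX1, CBX3, EZH2, SUZ12 and RNF2 separated in MDA-MB-231, 5 of 9 against 38.6% of all genes, and CBX3, EZH2, SUZ12 and BMI1 in SKOV3, 4 of 9 against 44.3%. On that scale CBX3, EZH2 and SUZ12 did so in the same direction in both lines, 3 of 9 against 24.8%. Which genes separate thus depends on the scale, and on both the shares of the 9 were near those of the matrix. Many genes of the matrix lie near the floor, and the share among genes with signal was not computed. How the 9 compare with such genes by this count is therefore not known. RNF2 is counted here although it was at the floor. Its MDA-MB-231 controls lay at 7.37 to 7.39 and its miR-365a-3p arrays at 7.33 to 7.37.

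The scaling acted on the members according to their signal. For genes with control means of 8.0 to 8.5, quantile normalization raised the log2 fold change by a median of 0.34 in MDA-MB-231 and 0.28 in SKOV3. CBX1, CBX3, CBX5, EZH2 and EED, with control means from 8.01 to 8.79, were raised by 0.23 to 0.37. RING1, BMI1 and SUZ12, with control means from 10.01 to 11.13, moved by -0.04 to 0.17, and both scales gave the same direction and call for each of them in both lines. The median log2 fold change of all genes was 0.0064 in MDA-MB-231 and 0.0066 in SKOV3 after normalization, and -0.013 and -0.018 as deposited.

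**Figure D3:**
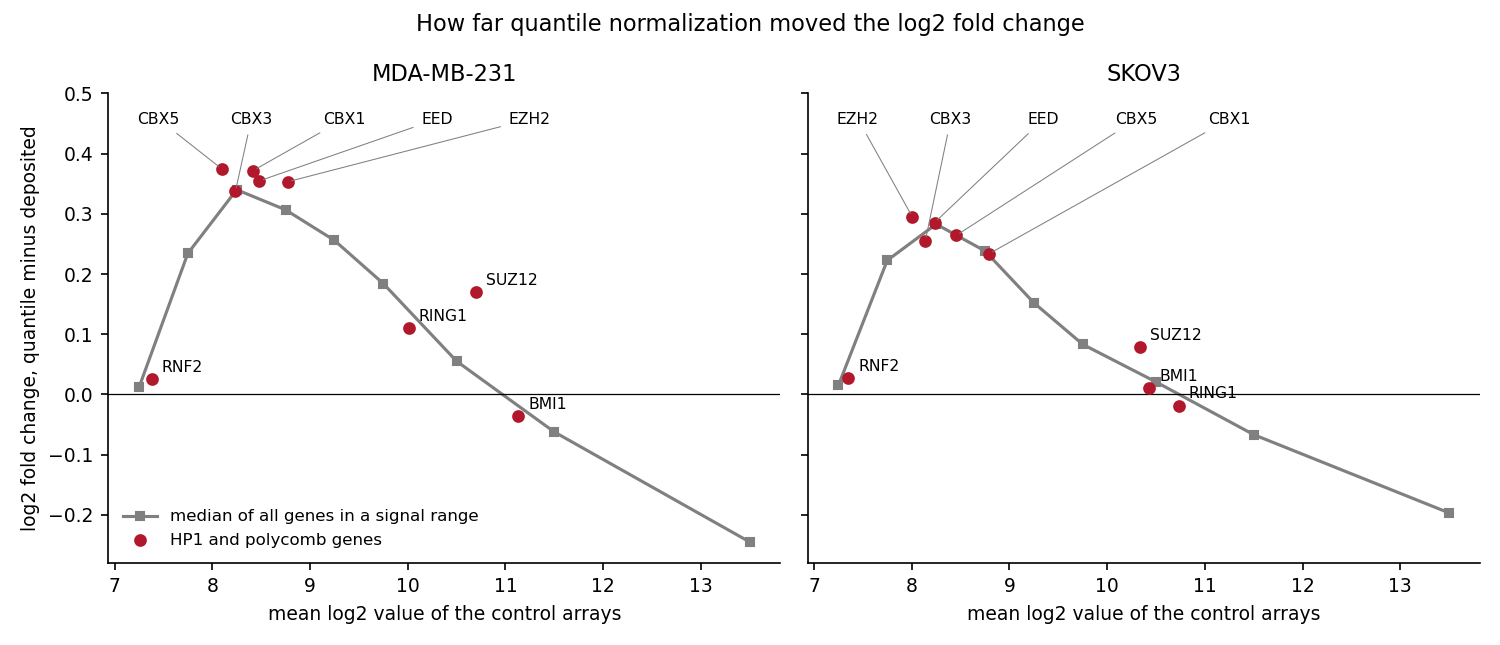
The x axis is a gene's mean log2 value on the control arrays and the y axis is its log2 fold change after quantile normalization minus that on the deposited values, for MDA-MB-231 (left) and SKOV3 (right). Grey squares are medians of all genes in a range of signal and red points are the 9 genes, of which CBX1, CBX3, CBX5, EZH2 and EED sit near the top of the curve, at shifts of 0.23 to 0.37.

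CBX3 has a close neighbour. In RefSeq it is the single member of the 9 with a gene that starts within 1000 bases on the opposite strand and runs the other way: HNRNPA2B1, which encodes an RNA-binding protein of mRNA processing, starts 697 bases from CBX3. The 250 bases before each start are shown because the genes are transcribed away from this stretch, with matches to the GC box GGGCGG and to the CCAAT box, which reads ATTGG on the other strand, in capitals, searched on both strands.
CBX3, chr7:26201193-26201442, GRCh38.p14, plus strand: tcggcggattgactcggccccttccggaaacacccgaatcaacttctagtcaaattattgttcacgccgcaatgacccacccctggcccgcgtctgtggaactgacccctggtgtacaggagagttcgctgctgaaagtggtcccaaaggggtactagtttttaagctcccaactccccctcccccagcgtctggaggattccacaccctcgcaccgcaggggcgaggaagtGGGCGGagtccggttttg
HNRNPA2B1, chr7:26200747-26200996, GRCh38.p14, minus strand: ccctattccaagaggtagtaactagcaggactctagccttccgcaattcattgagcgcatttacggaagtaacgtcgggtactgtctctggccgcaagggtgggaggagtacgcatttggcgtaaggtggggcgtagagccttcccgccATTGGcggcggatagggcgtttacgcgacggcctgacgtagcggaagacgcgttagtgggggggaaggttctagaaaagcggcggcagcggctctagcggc
The CBX3 stretch holds 1 GC box and no CCAAT box, and the HNRNPA2B1 stretch holds 1 CCAAT box and no GC box. Of 35116 RefSeq promoter windows of 250 bases, 42.6% hold a GC box and 32% a CCAAT box, so both matches are common. The E2F-type motif TTTGGCGC, which 0.55% of the windows hold, is in neither stretch.

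HNRNPA2B1 fell where CBX3 rose. It read 9.78, 9.82 and 10.03 in MDA-MB-231 controls and 9.07, 9.23 and 9.41 with miR-365a-3p, and in SKOV3 9.81 and 9.85 against 8.78, 9.33 and 9.28. All its miR-365a-3p arrays lay below the controls in both lines, where those of CBX3 lay above. HNRNPA2B1 fell by 0.64 on the log2 scale in MDA-MB-231 (adjusted p = 0.0121 from limma) and by 0.70 in SKOV3 (adjusted p = 0.0235), and as deposited by 0.87 (adjusted p = 0.0105) and 0.80 (adjusted p = 0.0348). The SKOV3 call was lost without replicate 1 (adjusted p = 0.114) or replicate 2 (adjusted p = 0.153) of the SKOV3 control.

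The change of CBX3 minus HNRNPA2B1, taken within each array, was 1.42 in MDA-MB-231 and 1.33 in SKOV3, and 1.31 and 1.17 as deposited. This only joins the changes of the 2 genes, and no test of it is given. Replicate 1 of miR-365a-3p, with the highest score and the highest CBX3 value, had the lowest HNRNPA2B1 value in each line. The same measure was taken for BMI1 and COMMD3, the gene that precedes BMI1 on its strand, after their values had been seen. COMMD3 rose by 1.14 in MDA-MB-231 (adjusted p = 0.000234 from limma) and by 0.51 in SKOV3 (adjusted p = 0.0367), while BMI1 was not called, and the change of BMI1 minus COMMD3 was -1.09 and -0.38. The SKOV3 call of COMMD3 was lost when any of 7 arrays was left out (replicates 1 and 2 of miR-365a-3p in each line, replicate 2 of the MDA-MB-231 control and both SKOV3 controls; highest adjusted p = 0.266) and under cyclic loess (adjusted p = 0.15).

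**Figure D4:**
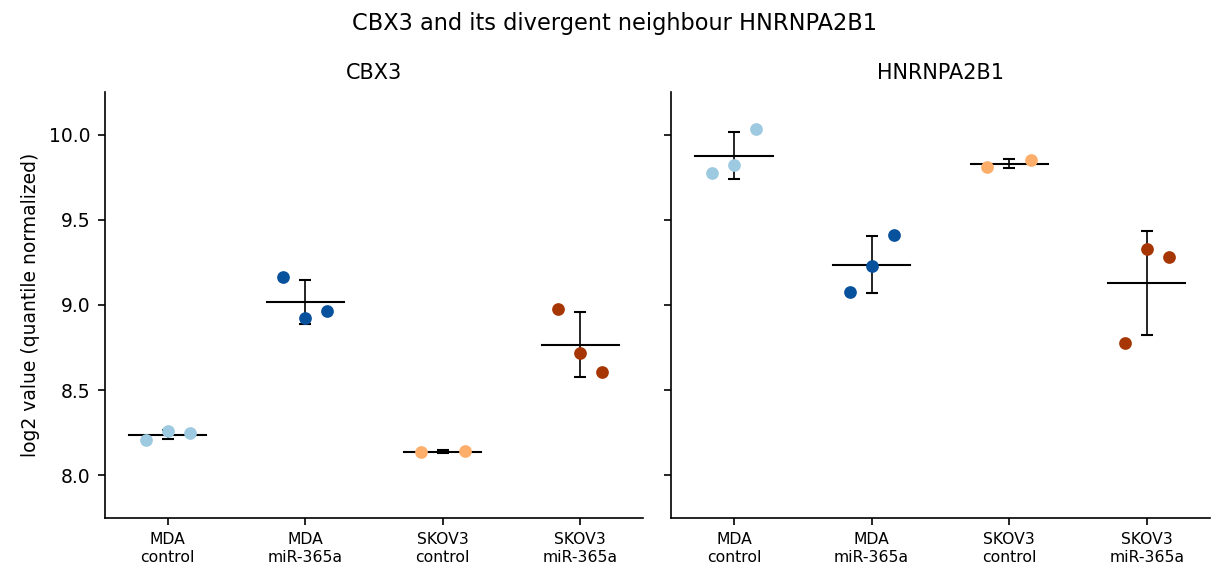
Quantile-normalized log2 values of CBX3 (left) and HNRNPA2B1 (right) are on the y axis and the 4 groups on the x axis, with points for arrays, lines for means and bars for SDs. With miR-365a-3p CBX3 lies higher and HNRNPA2B1 lower, without overlap, in both lines.

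Of all genes, 14.4% rose and 11.7% fell in MDA-MB-231, and 7.25% rose and 7.11% fell in SKOV3. Among 10 other core and accessory PRC2 genes, 0 rose and 5 fell in MDA-MB-231, and 0 rose and 1 fell in SKOV3. Their median log2 fold changes were -0.17 and -0.07, against 0.0064 and 0.0066 over all genes. RBBP4, a histone-binding subunit, fell by 0.30 in MDA-MB-231 (adjusted p = 0.00259 from limma) and by 0.44 in SKOV3 (adjusted p = 0.00139) and after normalization was the one gene of the list called in both lines. PHF19, JARID2, AEBP2 and EPOP, which guide or tune PRC2 on chromatin, fell in MDA-MB-231 by 0.41, 0.41, 0.40 and 0.32 and were not called in SKOV3. Their changes were not shown to differ between the lines (adjusted p = 0.49, 0.678, 0.291 and 0.113 from limma for the difference), and as deposited PHF19 (adjusted p = 0.0166), AEBP2 (0.000645) and EPOP (0.00342) fell in SKOV3 too. AEBP2 was also called there after median centring (adjusted p = 0.00127) and cyclic loess (adjusted p = 0.0423). JARID2 lost its call when any of 8 arrays was left out (all except replicate 3 of miR-365a-3p in MDA-MB-231 and replicates 1 and 2 of miR-365a-3p in SKOV3; highest adjusted p = 0.135), and AEBP2 gained one in SKOV3 without replicate 1 of the MDA-MB-231 control (adjusted p = 0.0372). As deposited, 6 of the 10 fell in MDA-MB-231 and 5 in SKOV3, and 0 rose. On that scale 17.9% of all genes fell in MDA-MB-231 and 14% in SKOV3.

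The shares of all genes were 14.4% that rose and 11.7% that fell in MDA-MB-231, and 7.25% and 7.11% in SKOV3. Among 26 other PRC1 genes, 4 rose and 12 fell in MDA-MB-231, and 2 rose and 8 fell in SKOV3, with medians of -0.09 and -0.08. All 10 that were called in SKOV3 were called in MDA-MB-231 with the same sign. DCAF7, a WD40 protein of some PRC1 complexes, fell by 2.48 in MDA-MB-231 (adjusted p = 8.75e-05 from limma) and by 1.47 in SKOV3 (adjusted p = 0.00444), the largest fall of the list. Its arrays read 10.33, 10.15 and 10.33 in controls against 7.48, 7.93 and 7.93 in MDA-MB-231, and 9.80 and 9.81 against 7.81, 8.72 and 8.49 in SKOV3. Replicate 1 of miR-365a-3p was the lowest for DCAF7 in each line. This did not hold for every gene that fell in both lines. For ADNP and ASXL2, described below, replicate 1 was the highest miR-365a-3p array in MDA-MB-231 and the lowest in SKOV3. For TRIM28 the lowest was replicate 2 in each line. PCGF2, the close relative of BMI1, fell by 0.82 (adjusted p = 7.51e-05) and 0.56 (adjusted p = 0.00183), where BMI1 was not called. CBX6, a reader of the PRC2 mark, fell by 1.67 and 0.84, and its SKOV3 call was lost when any of 8 arrays was left out (all except replicates 1 and 3 of miR-365a-3p in MDA-MB-231 and replicate 2 of miR-365a-3p in SKOV3; highest adjusted p = 0.22).

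The PRC1 genes that rose were PCGF6, E2F6, PCGF1 and SCML1 in MDA-MB-231 and the first 2 of these in SKOV3, all parts of variant complexes except SCML1. By limma, PCGF6 rose 0.38 (adjusted p = 0.00123) in the first line and 0.57 (adjusted p = 0.000577) in the second, the largest mean rise among genes of the list called in both lines. From the deposited values it had 0.11 (adjusted p = 0.449) and 0.30 (adjusted p = 0.0593). E2F6 and PCGF1 had 0.02 (adjusted p = 0.843 from limma) and 0.11 (adjusted p = 0.651) there in MDA-MB-231. SCML1 turned to a called fall as deposited, by 0.20 in MDA-MB-231 (adjusted p = 0.00304) and by 0.25 in SKOV3 (adjusted p = 0.00218). No direction can thus be given for SCML1. On that scale 0 of the 26 rose, 16 fell in MDA-MB-231 and 15 fell in SKOV3. It gave more falls than rises among all genes too. There 7.26% rose and 17.9% fell in MDA-MB-231, and 3.83% rose and 14% fell in SKOV3.

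Around HP1, of 20 genes for its partners and for methylation of H3K9, 1 rose and 8 fell in MDA-MB-231, while 2 rose and 4 fell in SKOV3, with medians of -0.06 in both. Over all genes the shares were 14.4% that rose and 11.7% that fell in MDA-MB-231, and 7.25% and 7.11% in SKOV3. TRIM28, the corepressor that recruits HP1 to silenced genes, fell by 1.11 in MDA-MB-231 (adjusted p = 0.000328 from limma) and by 0.88 in SKOV3 (adjusted p = 0.00387), and ADNP, which forms a complex with HP1, by 0.87 and 0.83. The other genes that fell in SKOV3 were INCENP, a chromosomal passenger protein, and SETDB1, an H3K9 methyltransferase. SUV39H1, the methyltransferase whose mark HP1 reads, and UHRF1, a reader of the same mark, fell in MDA-MB-231 by 0.87 (adjusted p = 0.00208) and 1.17 (adjusted p = 0.00121) and had -0.45 (adjusted p = 0.11) and -0.35 (adjusted p = 0.324) in SKOV3. SUV39H1 was called in SKOV3 without replicate 2 of miR-365a-3p there (adjusted p = 0.0484).

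By limma, SETDB2, a further methyltransferase, rose 0.38 (adjusted p = 0.00296) in MDA-MB-231 and 0.34 (adjusted p = 0.0153) in SKOV3, and MIS12, a kinetochore protein, rose in SKOV3 by 0.55 (adjusted p = 0.0127). The SKOV3 call of SETDB2 was lost without replicate 1 (adjusted p = 0.0682) or replicate 2 (adjusted p = 0.133) of the SKOV3 control, and as deposited it had 0.0039 and 0.059, called in neither line. On the deposited scale 0 of the 20 genes rose, 13 fell in MDA-MB-231 and 9 fell in SKOV3. There 17.9% of all genes fell in MDA-MB-231 and 14% in SKOV3.

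Of 13 enzymes and cofactors that act against these marks, 2 rose and 4 fell in MDA-MB-231, and 0 rose and 4 fell in SKOV3. Among all genes 14.4% rose and 11.7% fell in MDA-MB-231, and 7.25% and 7.11% in SKOV3. KDM3B, a demethylase of H3K9, fell by 0.80 in MDA-MB-231 (adjusted p = 0.000157 from limma) and by 0.91 in SKOV3 (adjusted p = 0.000308). ASXL1 and ASXL2, partners of the deubiquitinase that removes the PRC1 mark, fell in both lines, ASXL2 by 0.86 and 0.79. KDM4B fell in MDA-MB-231 by only 0.07 (adjusted p = 0.0322 from limma), from 7.39 to 7.32, which is near the floor. KDM6A fell in SKOV3 by 0.18 (adjusted p = 0.0125), from 7.79 to 7.61. USP16, a deubiquitinase of histone H2A, rose in MDA-MB-231 by 0.96 (adjusted p = 0.00201) and had 0.52 in SKOV3 (adjusted p = 0.0893), and KDM3A rose in MDA-MB-231 by 0.50 (adjusted p = 0.0407). As deposited, 1 of the 13 rose and 6 fell in MDA-MB-231, and 0 rose and 7 fell in SKOV3. On that scale 7.26% of all genes rose and 17.9% fell in MDA-MB-231, and 3.83% and 14% in SKOV3.

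Of 39 HOX genes, the classical polycomb targets, 18 had means within the lowest 60% of the array in every group, as had 16308 of the 31325 genes. HOXD4 rose in MDA-MB-231, where none fell, and HOXA10 rose and HOXA13, HOXB2, HOXB5 and HOXB8 fell in SKOV3. All genes gave 14.4% that rose and 11.7% that fell in MDA-MB-231, and 7.25% and 7.11% in SKOV3. HOXB5 read 10.78 and 10.62 in SKOV3 controls and 8.36, 8.81 and 8.39 with miR-365a-3p, a log2 fold change of -2.18 (adjusted p = 2.61e-05 from limma). HOXB8 had -1.07 (adjusted p = 8.36e-05) and HOXB2 -0.67 (adjusted p = 0.000401). In MDA-MB-231 these HOXB genes lay between 7.24 and 7.57 on every array, near the floor, so a fall could not have been measured there. HOXB7 had a mean of 10.47 in SKOV3 controls and a log2 fold change of -0.05 (adjusted p = 0.946), so the HOXB genes with signal did not all move. As deposited, 2 HOX genes fell in MDA-MB-231 and 8 in SKOV3, and 0 rose, where 17.9% and 14% of all genes fell.

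**Figure D5:**
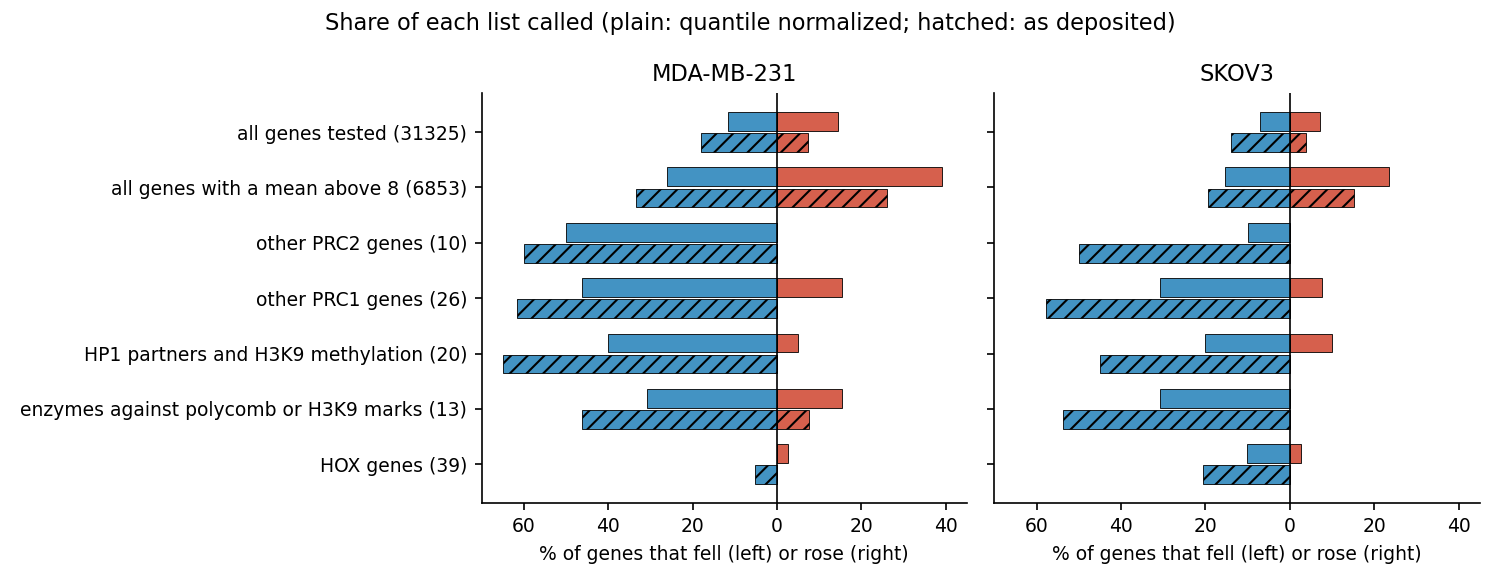
Bars give the percentage of each list that fell (left of 0, blue) or rose (right of 0, red) with an adjusted p under 0.05 in MDA-MB-231 (left) and SKOV3 (right), with the number of genes in brackets. Plain bars are quantile-normalized and hatched bars deposited values. The other PRC2, other PRC1 and HP1-partner lists hold more genes that fell than rose in both lines on both scales, and their deposited bars reach further left.

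Genes with signal are the closer yardstick for these counts, since many of the 31325 lie near the floor. Among the 6853 genes with a mean above 8, 2673 rose and 1793 fell in MDA-MB-231, and 1603 rose and 1047 fell in SKOV3. As deposited, falls outnumbered rises among them, with 1789 that rose and 2283 that fell in MDA-MB-231 and 1037 and 1326 in SKOV3. Of the 248 small-protein genes 153 rose and 9 fell in MDA-MB-231, and of the 20 large-protein genes 0 rose and 19 fell. The score made from these genes was chosen with earlier results known, so these counts are a description. When the score of each array was entered as a covariate, limma called 0 of the 31325 genes in either line (1728 in MDA-MB-231 and 1977 in SKOV3 had an unadjusted p under 0.05) and so 0 of the 9 members, and the median standard error went from 0.0355 to 0.149 in MDA-MB-231. CBX3 then had log2 fold changes of 0.18 and 0.13, and SUZ12 -0.65 and 0.02. The score and the treatment cannot be told apart in this design.

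The genes whose values followed each member most closely over the 11 arrays, among genes with a mean above 8, are given as a description, since treatment and line shape all of them. For CBX3 they were DTWD1, MYNN and NSL1 (r = 0.990, 0.989 and 0.989), and for SUZ12 GNA13, KPNA1 and CENPF, with r = 0.989 for the last of these. CBX3 and SUZ12 ran opposite to each other, with r = -0.925. For CBX1 they included MBP and TM7SF3 (0.982 and 0.971), and they were for CBX5 LOC648000, SNAPIN and LOC646900 (0.961 to 0.957), for EZH2 DRG2, TH1L and SLC25A37 (0.981 to 0.975), and for EED MED19, UBE2E3 and CREM (0.948 to 0.940). Those of RING1 included CHURC1 and MSX1 (0.984 for each), and BMI1 was closest to TWISTNB, STT3B and ZZZ3 (0.985 to 0.976). RNF2, at the floor, was closest to LOC652672, NUDCD3 and KIFC1, at 0.788 to 0.741.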

How the data were processed

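The authors hybridized biotin-labelled cRNA to Illumina BeadChips, normalized with lumi by the quantile method (version not given in the sources used here) and deposited a single value for each symbol on each array, taken here as log2. Whether the authors' scale is log2 or variance-stabilized, how probes were combined and whether background was subtracted are not given in the sources used here. The number of arrays, 2 or 3 per group, limits the precision.

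Groups followed the labels. Values were quantile normalized across 11 arrays, and 4 group means were fitted (lmFit, eBayes; limma 3.58.1, R 4.3.3) with Benjamini-Hochberg adjustment over 31325 genes; the fit was tested on simulated data. Single values were tested by exact permutation. All listed genes were matched.

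Members, lists and the score were chosen with earlier results of these data known, as was the rule for named genes: the 9 members, the largest rise and fall of each list among genes called in both lines, a member's neighbour, near copy and 3 most similar genes (some of the last are not reported here). Other genes were named after their values were seen. Alternatives were the deposited values, median centring, cyclic loess, a filter on low means, each line alone, a replicate block, an intensity trend, the score as a covariate, and each array left out.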

Additional observations from a re-analysis of the deposited data

Results flagged for a closer look

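The change with miR-365a-3p differed between the lines, by limma's test of the difference, for 5 of the genes named above, each of which was near the floor in the line where it was not called. The SKOV3 change minus the MDA-MB-231 change was -2.19 for HOXB5 (adjusted p = 0.00059), -1.06 for HOXB8 (adjusted p = 0.0016), -0.658 for HOXB2 (adjusted p = 0.0073) and -0.667 for PAX8 (adjusted p = 9.61e-05) on the log2 scale. These values restate the SKOV3 falls, since in MDA-MB-231 a fall of these genes could not be measured. PAX8 had a mean of 8.18 in SKOV3 controls and 7.48 with miR-365a-3p, against 7.40 and 7.37 in MDA-MB-231. For HOXD4 the difference was -0.292 (adjusted p = 0.0114), which restates its rise in MDA-MB-231, from 7.67 to 8.01, beside a mean of 7.44 in SKOV3 controls and a change of 0.06 there (adjusted p = 0.389). As deposited HOXD4 had 0.044 in MDA-MB-231 (adjusted p = 0.5), so that rise depends on the scale. Without replicate 1 of the SKOV3 control the HOXB2 call was lost (adjusted p = 0.0504). None of the 9 HP1 and polycomb genes met this test with all arrays. Groups of 2 or 3 arrays are too small to test for outlying samples.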

How the results depend on the processing

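The calls of CBX3 in both lines and of SUZ12 in MDA-MB-231 were kept under each alternative run except the covariate. On the deposited values and after median centring 2 members fell in MDA-MB-231, EZH2 being added, and signs turned for CBX5 (-0.049 and -0.017) and EED (-0.12 and -0.084) in MDA-MB-231 and for EZH2 in SKOV3 (-0.18 and -0.14). The deposited values also turned EED (-0.0045) and RNF2 (-0.014) in SKOV3, and centring turned the RING1 difference between lines (0.0050). Cyclic loess turned BMI1 in MDA-MB-231 (-0.064), RING1 in SKOV3 (-0.012) and the CBX5 difference (-0.020). The filter on low means gave 2 members that rose in MDA-MB-231 (CBX5), 1 that fell and 2 called in SKOV3 and 2 called in both lines (SUZ12), with fewer genes tested. Each line alone gave 2 that rose and 2 called in SKOV3 (CBX5, adjusted p = 0.0368). The intensity trend gave 1 that fell, 2 called in SKOV3 and 2 in both lines (SUZ12, adjusted p = 0.0354). The deviations of same-numbered arrays from their group means had r = -0.125 to 0.232. Within such small groups the deviations are tied to each other, so these values cannot decide whether the numbers pair arrays. With the replicate number as a block, which drops the unpaired SKOV3 array, the CBX3 change was 0.78 and 0.71. No member's call changed (all genes called 6758 and 3097, against 8174 and 4498), while RNF2 in SKOV3 (-0.0051) and the CBX5 difference (-0.016) turned. With the covariate 0 members rose, fell or were called in either line, and CBX1 (1.00), CBX5 (-0.20) and EED (-0.38) turned in MDA-MB-231 and CBX5 (-0.099), SUZ12 (0.018) and EED (-0.23) in SKOV3.

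Leaving out 1 array at a time gave 2 to 3 members called and 1 to 2 that rose in MDA-MB-231 and 1 to 2 in SKOV3, 0 to 1 that fell in SKOV3, 1 to 2 called in SKOV3 and in both lines, and 0 to 1 called for the difference. The ranges that crossed 0 were -0.065 to 0.23 for BMI1 in MDA-MB-231, -0.024 to 0.19 for RING1 and -0.0051 to 0.026 for RNF2 in SKOV3, and for the differences -0.092 to 0.11 for CBX5, -0.057 to 0.13 for EED and -0.10 to 0.20 for BMI1. With SKOV3 fitted alone, 2825 of all genes were called there. The causes were not tested. Dim genes such as RNF2 are limited by signal over background.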
